A study of Mus musculus with 30 samples.

Results

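The genes described here are *Fgf21* and 8 other genes for proteins that the liver secretes into blood, *Gdf15*, *Angptl4*, *Angptl6*, *Angptl8*, *Fst*, *Inhbe*, *Fetub* and *Selenop*. They were chosen by symbol, with earlier results of these data known, and all 9 were found among the 14173 genes of the liver tables. Liver RNA came from 30 male C57BL6/J mice aged 6 months, 6 from each of 5 diets, and 1 library of 3′ end reads (QuantSeq) was made per mouse. Mice arrived at 9 weeks of age and first ate Cas-20% or, for all soy groups, Soy-20%. At 12 weeks they were kept on these or switched to the other diets for 12 weeks, with 10 mice per diet, and were killed after a 4 h fast. The casein diets were Cas-20% (labelled NP, 20% casein, 0.57 g% methionine and 0.41 g% cysteine) and Cas-5% (LP, 5% casein, 0.15 g% and 0.10 g%). The soy diets were Soy-20% (20Soy, 20% soy, 0.22 g% each), Soy-20% + SAA (20Soy+SAA, 20% soy with methionine and cysteine added to 0.58 g% and 0.41 g%) and Soy-10% (10Soy, 11.5% soy, 0.13 g% each). The comparisons ask how restriction of each protein, matched for sulfur amino acids, changed these transcripts, and whether the added sulfur amino acids or the protein source did. Values are those of whole liver, so fewer cells of a type and less RNA per cell cannot be told apart.

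Hepatokines are hormones by which the liver reports its metabolic state to other organs. FGF21 acts on brain and adipose tissue through FGF receptors paired with β-klotho, and its gene is known to respond to the amino acid stress factor ATF4 and to the fasting receptor PPARα. GDF15 is a stress hormone that signals to the hindbrain. ANGPTL4 and ANGPTL8 control lipoprotein lipase, the enzyme that clears triglyceride from blood, in the fasted and the fed state respectively. *Inhbe* encodes the activin E subunit and *Fst* encodes follistatin, which binds and blocks activins. *Fetub* and *Selenop* encode fetuin-B, a protease inhibitor of the cystatin superfamily, and selenoprotein P, the carrier of selenium in plasma.

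The gene coordinates in the tables, on GRCm38, equalled those of GENCODE M21 for each member. *Fgf21* (ENSMUSG00000030827) is on the minus strand of chromosome 7 from 45613886 to 45615490, with 1 annotated transcript of 3 exons and no overlapping gene. *Gdf15* (chr8:70629393-70632456), *Angptl4* (chr17:33773750-33781830) and *Fetub* (chr16:22918334-22939778) also overlapped no other gene. *Angptl8* (chr9:21835510-21837347) lies inside *Dock6* on the opposite strand, and *Angptl6* (chr9:20873808-20879727) overlaps *A230050P20Rik* on the opposite strand, both of which are measured genes. *Fst* (chr13:114452290-114458951), *Inhbe* (chr10:127348857-127354411) and *Selenop* (chr15:3268547-3280508) overlap the opposite-strand genes *Gm47040*, *Gm47200* and *Ccdc152*. The counting pipeline was the one for forward-strand reads, and whether it kept reads of such partners apart in these 5 genes was not tested.

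Promoter sequences were available for 7 members, in 11 entries, from RefSeq on GRCm38.p6. The 250 bases before each transcript start were searched on both strands for the C/EBP-ATF response element TGATGNAA, to which ATF4 with a C/EBP partner is known to bind, for the palindromic E-box CACGTG, and for the direct repeat AGGTCANAGGTCA bound by PPARα. The first was found before *Fgf21*, *Angptl8* and *Inhbe*, and in 3.45% of the 32851 promoters of the table. The 3 windows are shown because these genes shared the element, while of them only *Fgf21* rose after restriction in the main fits, as given below. The element is in capitals, in its reverse complement TTNCATCA for *Fgf21* and *Inhbe*.
Fgf21, chr7:45615491-45615740, minus strand: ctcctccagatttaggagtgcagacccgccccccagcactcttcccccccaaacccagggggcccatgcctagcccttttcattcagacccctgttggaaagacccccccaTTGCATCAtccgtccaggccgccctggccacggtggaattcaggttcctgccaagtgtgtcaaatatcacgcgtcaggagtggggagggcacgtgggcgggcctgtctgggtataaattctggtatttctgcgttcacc
Angptl8, chr9:21835260-21835509, plus strand: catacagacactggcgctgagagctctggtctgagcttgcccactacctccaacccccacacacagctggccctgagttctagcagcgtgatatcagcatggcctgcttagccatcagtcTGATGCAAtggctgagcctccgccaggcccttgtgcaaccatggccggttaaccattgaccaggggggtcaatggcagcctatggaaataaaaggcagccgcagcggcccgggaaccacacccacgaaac
Inhbe, chr10:127351849-127352098, minus strand: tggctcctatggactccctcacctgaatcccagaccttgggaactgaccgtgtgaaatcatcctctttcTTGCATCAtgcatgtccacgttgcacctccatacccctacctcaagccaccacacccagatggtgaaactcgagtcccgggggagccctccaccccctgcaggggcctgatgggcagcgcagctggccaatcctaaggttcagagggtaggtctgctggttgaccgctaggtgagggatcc
The element spans positions -139 to -132 from the start in *Fgf21*, -130 to -123 in *Angptl8* and -181 to -174 in *Inhbe*, whose RefSeq start lies inside the GENCODE span of the gene. The E-box, found in 6.02% of promoters, occurred before *Fgf21* at -50 to -45 and in 1 of the *Gdf15* windows at -83 to -78, and it does not overlap the first element. The direct repeat was in 0.0335% of promoters and in none of the windows searched. At that share, its absence from 11 windows says little. *Angptl4* and *Fst* had no promoter entry and were not searched for any of these elements.

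Library totals ran from 7694015 to 14565542 counts with a median of 10803734. The fewest raw counts of *Fgf21* in a liver were 10 and the most 302, and the fewest of *Fst* were 6. Counts of *Selenop* were at least 34475 per liver, so counting error matters little there. Albumin was the most abundant hepatocyte marker (median of 47185 CPM), and all 8 hepatocyte markers were present. The summed pancreatic acinar markers (10 of 12 in the table, led by *Cela1*) reached 860 CPM in Soy-10% liver 4 against at most 58.4 in any other liver and a median of 27.3 over all 30 livers. The pancreas also makes FGF21, and *Fgf21* in that liver, at 101 normalized counts, was below the median of its diet.

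Libraries of 2 diets stood apart from the rest. In Cas-20%, the mean of 18 PPARα target genes (log2 CPM, where CPM scales counts to library size, each gene centred on 30 livers) was -0.79, -0.78 and -0.85 in livers 1 to 3 and -0.12, 0.08 and 0.23 in livers 4 to 6. The mean of 15 lipogenic genes was 1.24, 0.47 and 1.18 in livers 1 to 3 and 0.00, 0.36 and -0.16 in livers 4 to 6. The first 3 livers thus had the lowest PPARα target means of all 30 livers. In Soy-20% + SAA, libraries 3 to 6 had slopes of expression on the GC content of transcript 3′ ends of 0.0590, 0.194, 0.185 and 0.210 log2 units per 10 percentage points, against a range from -0.0648 to 0.0307 in the other 26 libraries. The 3′ ends (the last 200 bases) of the members ranged from 24.5% GC in *Fst*, among the lowest 2.25% of genes, to 60% in *Angptl8*. *Fgf21* had 39% and *Gdf15* 45%, where the median of the genes used for the slopes was 40%. For many, but not all, results that rest on these libraries, values are given with and without them. Changes against Soy-20% + SAA that are printed only with all livers may depend on its libraries. Leaving out the Cas-20% livers was chosen after seeing the data. The plot of all members by diet shows both splits.

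**Figure D1:**
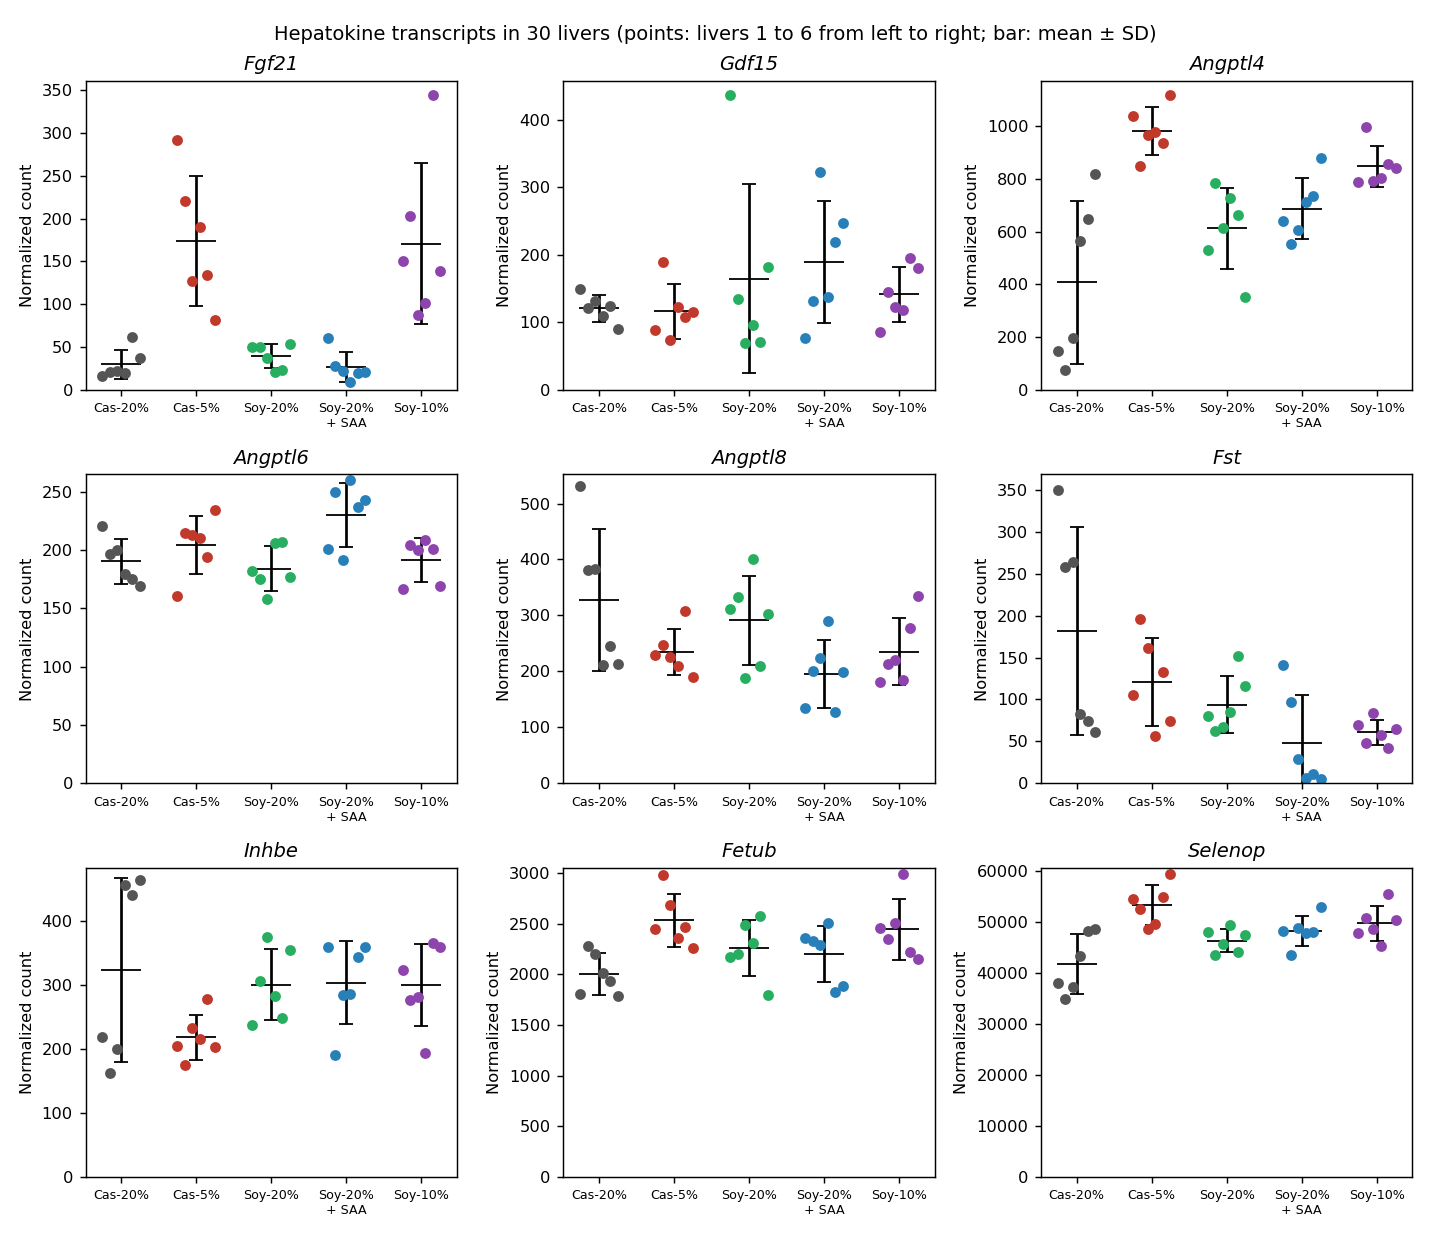
Normalized counts (linear axes from 0) of the 9 genes in each of 30 livers, with livers 1 to 6 of a diet from left to right and the mean ± SD (n = 6) in black. *Fgf21* was high in Cas-5% and Soy-10%; *Angptl4*, *Inhbe* and *Fst* split the Cas-20% livers into 1 to 3 and 4 to 6; *Fst* was lowest in Soy-20% + SAA livers 4 to 6, where the axis ends the SD bar at 0.

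Restriction of either protein raised *Fgf21*. In Cas-20% livers its normalized counts ran from 16.0 to 61.7 with a median of 21.4, and in Cas-5% livers from 81.0 to 292 with a median of 162. Every Cas-5% liver was above every Cas-20% liver. The means were 29.6 ± 17.5 and 174 ± 75.8 (SD, n = 6 each), a log2 fold change of 2.56 ± 0.33 (SE, 5.89-fold, edgeR quasi-likelihood test, adjusted p = 2.95e-05). It passed both without Cas-20% livers 1 to 3 (2.13) and without livers 4 to 6 (3.14, edgeR adjusted p = 0.000974 and 4.76e-05). In Soy-20% + SAA livers 1 to 6 the counts were 60.2, 27.6, 22.3, 9.58, 19.6 and 20.8, and in Soy-10% livers they ran from 87.1 to 344 with a median of 144. The groups again did not overlap. The means were 26.7 ± 17.4 and 171 ± 94.2 (SD, n = 6 each) and the log2 fold change was 2.67 ± 0.39 (SE, edgeR adjusted p = 0.000984). Soy-20% livers ran from 20.9 to 53.7 with a median of 43.7, and against them Soy-10% was higher by 2.10 ± 0.32 (SE, edgeR adjusted p = 0.00405).

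The size of the soy effect on *Fgf21* depended on the control libraries. *Fgf21* was higher in Soy-20% + SAA livers 1 and 2, at 60.2 and 27.6 normalized counts, than in livers 3 to 6, where it ran from 9.58 to 22.3. With the library GC slope as a covariate the log2 difference between Soy-10% and Soy-20% + SAA was 1.73 (edgeR adjusted p = 0.0250). Without libraries 3 to 6 it was 1.92 and no longer passed (edgeR adjusted p = 0.0693), with the 2 highest control livers remaining. Without Soy-10% liver 4, the one with pancreatic markers, it was 2.78 (edgeR adjusted p = 0.00144). The comparison with Soy-20% does not use the Soy-20% + SAA libraries and stayed at 1.84 with the GC slope as a covariate (edgeR adjusted p = 0.00334).

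The casein and soy effects on *Fgf21* differed by -0.12 ± 0.57 on the log2 scale (SE, edgeR interaction test, adjusted p = 0.925), which does not show that they were alike. Without the Soy-20% + SAA libraries 3 to 6 this difference was 0.63 and with the GC slope 0.73, and neither passed (edgeR adjusted p = 0.714 and 0.468). Soy-10% and Cas-5% livers overlapped in *Fgf21* and differed by -0.04 ± 0.30 (SE, edgeR adjusted p = 0.954). In the order of diet means the neighbours Soy-20% + SAA, Cas-20% and Soy-20% (39.3 ± 14.4, SD, n = 6) did not differ beyond their spread, nor did Soy-10% and Cas-5%. The step from Soy-20% to Soy-10% had an exact two-sided permutation p of 0.00216, the smallest that 6 against 6 livers can give, and an adjusted p of 0.0779 over the 36 neighbouring pairs of all members.

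**Figure D2:**
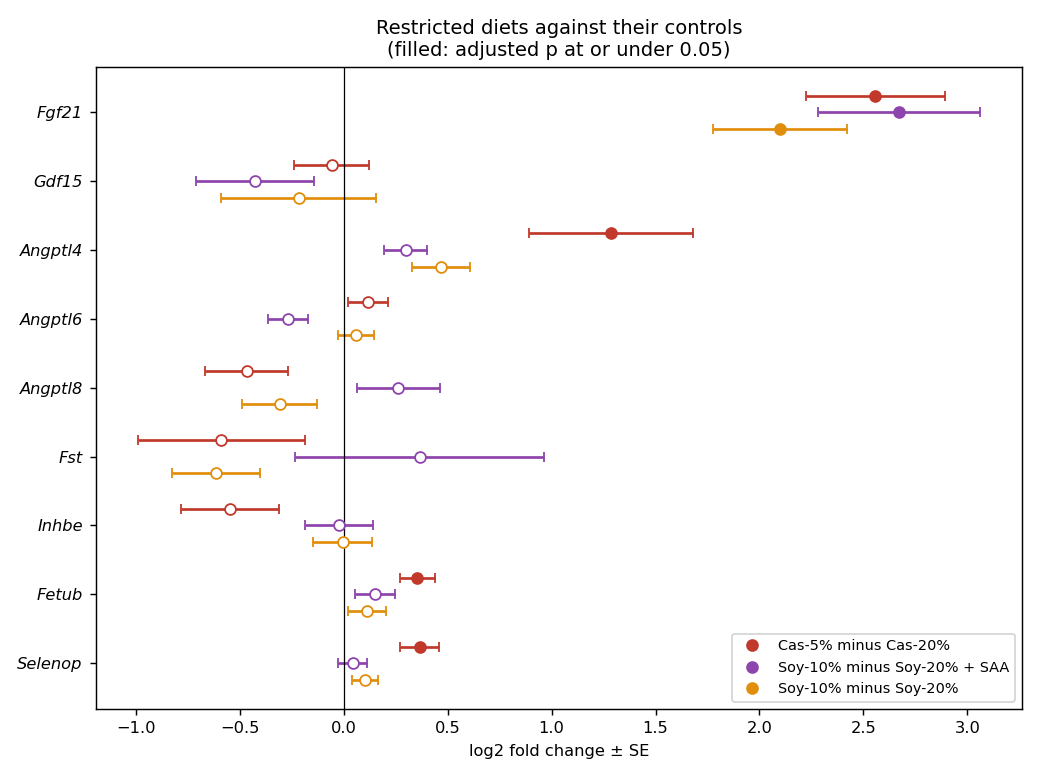
Log2 fold changes (points) with standard errors (bars) of the 9 genes for Cas-5% minus Cas-20%, Soy-10% minus Soy-20% + SAA and Soy-10% minus Soy-20%, with filled points where the edgeR adjusted p was 0.05 or less. *Fgf21* is filled in all 3, and *Angptl4*, *Fetub* and *Selenop* only in the casein comparison.

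Of the 9 genes, 4 rose after casein restriction and 0 fell, where 11.6% of the 12076 genes tested rose and 13.3% fell. The 4 were *Fgf21*, *Angptl4*, *Fetub* and *Selenop*. Without Cas-20% livers 1 to 3, *Selenop* no longer passed and *Inhbe* fell, and without livers 4 to 6, *Fetub* no longer passed and *Fst* and *Angptl8* fell, with the values given for each gene below. The median log2 fold change was 0.12 over the 9 genes and 0.02 over all genes. The livers of Cas-5% and Cas-20% did not overlap in 3 members, *Fgf21*, *Angptl4* and *Selenop*, as for 12.9% of all genes. After soy restriction 1 member rose against Soy-20% + SAA, where 8.51% of 11983 genes rose and 8.47% fell, and that member, *Fgf21*, was also the 1 without overlap, as for 6.22% of all genes. Against Soy-20%, again only *Fgf21* passed, where 0.319% of 11897 genes rose and 0.546% fell; the livers did not overlap in *Fgf21* and *Angptl4*, as for 1.34% of all genes.

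No member passed in either direction between Soy-20% and Soy-20% + SAA (0% of 11932 genes higher and 0.00838% lower, 1 gene by edgeR, with 2892 at an unadjusted p under 0.05 and 873 called by DESeq2). Nor did any pass between Soy-20% + SAA and Cas-20%, where 1.01% of 11988 genes were higher and 1.42% lower, or in the casein effect minus the soy effect, where 3.2% of 12532 genes were higher and 5.49% lower. Other settings called some members in these comparisons, as given under the processing settings. Across the 5 diets together, 7 members differed, against 43.4% of 12561 genes, and *Gdf15* (edgeR adjusted p = 0.294) and *Inhbe* (edgeR adjusted p = 0.185) did not pass. Without Cas-20% livers 1 to 3, *Angptl8*, *Fst* and *Selenop* did not pass (edgeR adjusted p = 0.130, 0.107 and 0.0650), and *Inhbe* did (edgeR adjusted p = 0.000807). With the GC slope as a covariate 4 members passed, and *Angptl6*, *Angptl8* and *Fetub* did not (edgeR adjusted p = 0.361, 0.0706 and 0.0502). Fewer genes were also called in all with the GC slope, as given under the processing settings. The share of all genes called without Cas-20% livers 1 to 3 is not given. Neither set of changes is therefore read as particular to the members.

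*Angptl4*, a lipoprotein lipase inhibitor that is induced by fasting, was high and even in both restricted diets. It ran from 850 to 1120 normalized counts in Cas-5% (median of 974) and from 788 to 997 in Soy-10% (median of 824). Cas-20% livers 1 to 6 had 147, 75.0, 195, 564, 647 and 821, so that livers 1 to 3 lay below every other liver of the study. The log2 fold change of Cas-5% over Cas-20% was 1.29 ± 0.39 (SE, edgeR adjusted p = 0.0245). It fell to 0.55 without Cas-20% livers 1 to 3 and grew to 2.82 without livers 4 to 6 (edgeR adjusted p = 0.00253 and 1.78e-07), so *Angptl4* passed against either set of 3 livers. It missed with DESeq2 (adjusted p = 0.0539), with the GC slope as a covariate (0.995, edgeR adjusted p = 0.0522) and without Cas-20% liver 3 (1.14, edgeR adjusted p = 0.0506).

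Soy-20% livers ran from 354 to 785 counts of *Angptl4* (median of 638) and Soy-20% + SAA livers from 554 to 881 (median of 675). Soy-10% was higher than the latter by 0.30 ± 0.10 on the log2 scale (SE, edgeR adjusted p = 0.0604) and higher than Soy-20% by 0.47 ± 0.14 (SE, edgeR adjusted p = 0.144), with neither difference passing. All 6 Soy-10% livers were above all 6 Soy-20% livers. Without Soy-20% + SAA libraries 3 to 6 the first difference was 0.50 (edgeR adjusted p = 0.0230), and with the GC slope 0.52 (edgeR adjusted p = 0.0167), so it passed in both. The casein effect minus the soy effect, 0.98 ± 0.45 (SE, edgeR adjusted p = 0.169), turned on the Cas-20% livers, being 2.53 without livers 4 to 6 and 0.25 without livers 1 to 3 (edgeR adjusted p = 2.12e-06 and 0.353).

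*Angptl8* encodes a secreted protein that is induced by feeding and insulin. It was 532, 381, 383.5, 211, 246 and 213 normalized counts in Cas-20% livers 1 to 6 and 189 to 308 in Cas-5% (median of 227), a log2 change of -0.47 ± 0.20 that did not pass (SE, edgeR adjusted p = 0.101). Livers 1 to 3 were again the ones apart, here above every Cas-5% liver. Without livers 4 to 6 the change was -0.88 and passed (edgeR adjusted p = 0.000341), and without livers 1 to 3 it was 0.08 (edgeR adjusted p = 0.727). In the soy diets *Angptl8* ran from 189 to 400 in Soy-20%, 127 to 290 in Soy-20% + SAA and 181 to 335 in Soy-10%, with overlap in each pair. On the log2 scale Soy-10% minus Soy-20% + SAA was 0.26 ± 0.20 (SE, edgeR adjusted p = 0.379). Soy-10% minus Soy-20% was -0.31 ± 0.18 (SE, edgeR adjusted p = 0.531). Soy-20% minus Soy-20% + SAA was 0.58 ± 0.21 (SE, edgeR adjusted p = 0.123). Soy-20% + SAA minus Cas-20% was -0.74 ± 0.25 (SE, edgeR adjusted p = 0.0885).

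*Angptl6*, whose product is also called angiopoietin-related growth factor, varied least in this family. Its diet means lay between 184 ± 19.1 in Soy-20% and 230 ± 27.6 in Soy-20% + SAA (SD, n = 6 each), a ratio of 1.25 from the lowest to the highest. It passed across the 5 diets (edgeR adjusted p = 0.0328) but not without Soy-20% + SAA libraries 3 to 6 (edgeR adjusted p = 0.293). Its differences between diet pairs were at most 0.31 on the log2 scale and none passed, although Soy-10% minus Soy-20% + SAA did when all 30 livers entered 1 fit (-0.26, edgeR adjusted p = 0.0383). That difference also passed without Soy-20% + SAA liver 1 (-0.30) or 3 (-0.32, edgeR adjusted p = 0.0340 and 0.0437). Soy-20% minus Soy-20% + SAA passed without Soy-20% + SAA liver 1 (-0.35, edgeR adjusted p = 0.0348).

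The Cas-20% split ran through the members in opposite directions, as the plot against PPARα targets shows. *Angptl4*, *Inhbe* and *Selenop* were lower in livers 1 to 3 than in livers 4 to 6, and *Fst*, *Angptl8* and *Angptl6* were higher, without overlap in these 6 genes. *Gdf15*, *Fetub* and *Fgf21* overlapped between these sets. Within diets, after removing each diet's mean, *Angptl4* correlated with *Inhbe* (Pearson r = 0.72) and *Selenop* (0.71) and inversely with *Fst* (-0.56) over 30 livers, and these livers share the libraries, normalization and the Cas-20% split. PPARα targets and lipogenic genes moved with this split, as did the sum of the 3 adipocyte markers in the table, at 4.18, 5.75 and 4.67 CPM in livers 1 to 3 and 27.9, 29.9 and 20.7 in livers 4 to 6, and the hepatocyte marker mean (0.320 to 0.496 against 0.0778 to 0.165, centred log2 CPM). Their part in the values of the members was not tested.

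**Figure D3:**
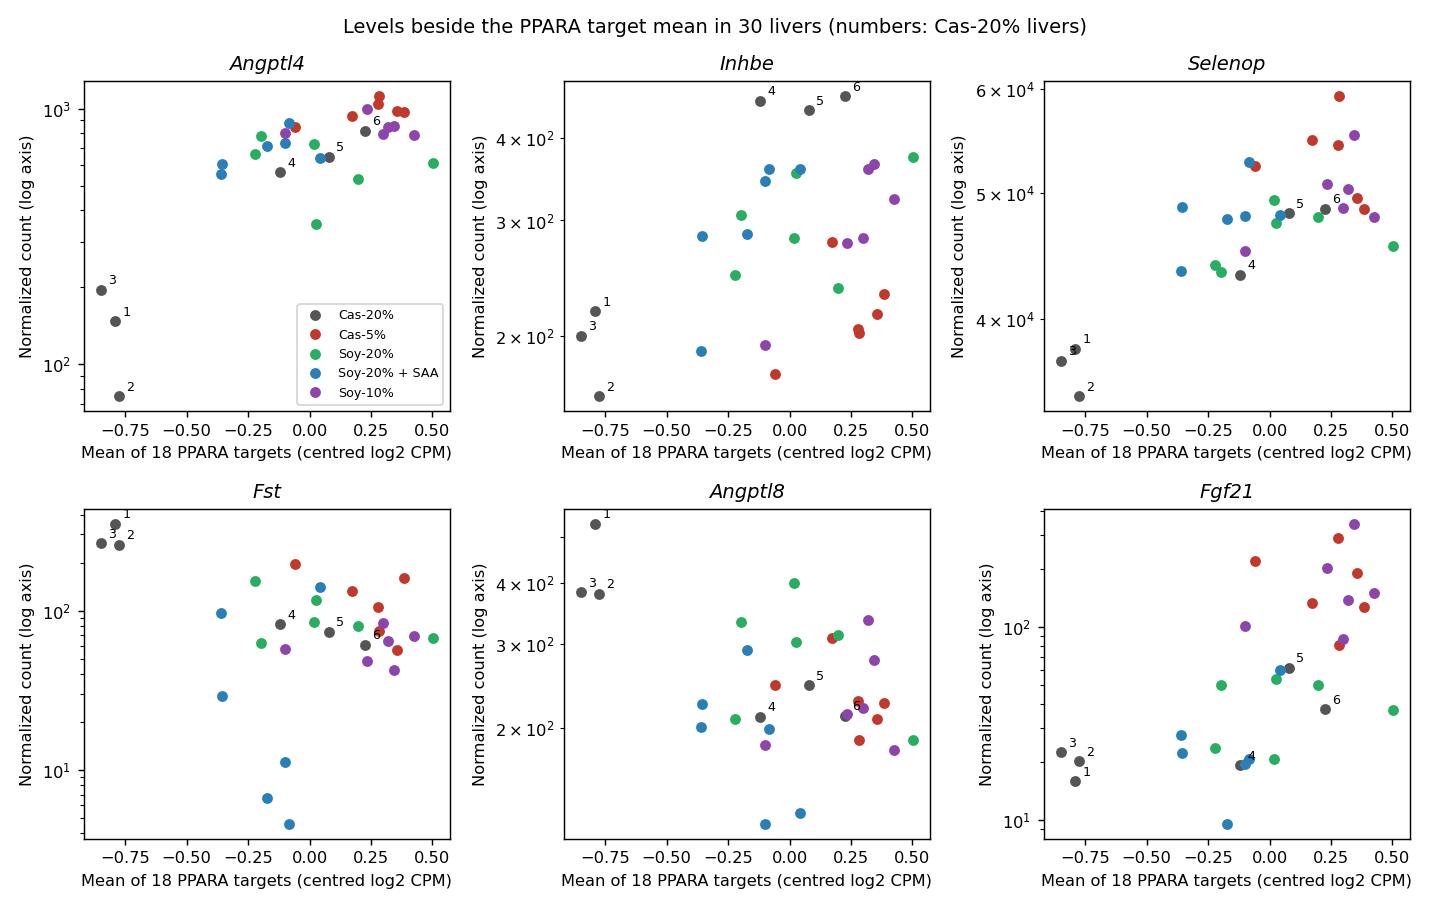
Normalized counts (log axes) of 6 members against the mean centred log2 CPM of 18 PPARα target genes in 30 livers, coloured by diet, with Cas-20% livers numbered. Cas-20% livers 1 to 3 sit apart at the left, between -0.85 and -0.78, with low *Angptl4*, *Inhbe* and *Selenop* and high *Fst* and *Angptl8*.

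*Inhbe*, the activin E subunit made mainly in liver, did not rise with *Fgf21* in any comparison. Its counts were 218, 162, 200, 457, 441 and 464 in Cas-20% livers 1 to 6 and 175 to 278 in Cas-5% (median of 210.5). Livers 1 to 3 lay within or below the Cas-5% range and livers 4 to 6 above it. The log2 change, -0.55 ± 0.23 (SE, edgeR adjusted p = 0.0990), was -1.04 without livers 1 to 3 (edgeR adjusted p = 6.7e-06) and 0.18 without livers 4 to 6 (edgeR adjusted p = 0.383). It also passed with the GC slope as a covariate (-0.78, edgeR adjusted p = 0.0210) and without Cas-20% liver 2 (-0.69) or 3 (-0.66, edgeR adjusted p = 0.0217 and 0.0462). The soy diets had means of 300.5 ± 56.0 in Soy-20%, 304 ± 65.5 in Soy-20% + SAA and 300.2 ± 64.0 in Soy-10% (SD, n = 6 each). Soy-10% exceeded Cas-5% by 0.43 ± 0.13 (SE, edgeR adjusted p = 0.0434), with overlapping livers. That call was lost in 10 of the 12 fits that left out 1 liver, with adjusted p from 0.0557 to 0.103 in edgeR.

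*Fst*, follistatin, had the widest spread relative to its mean in Soy-20% + SAA (48.2 ± 57.0, SD, n = 6). Cas-20% livers 1 to 6 had 350.4, 258, 264, 82.1, 73.7 and 60.9 counts, and Soy-20% + SAA livers 1 to 6 had 140.5, 97.2, 29.0, 6.7, 11.2 and 4.63. In both diets the livers that stand apart did not overlap the others, and in Soy-20% + SAA they were the low ones. Cas-5% ran from 56.7 to 196 (median of 119), Soy-20% from 62.6 to 152 (median of 82.2) and Soy-10% from 42.2 to 83.3 (median of 61.0). Soy-10% was below Cas-5% by -0.99 ± 0.25 on the log2 scale (SE, edgeR adjusted p = 0.0149), with overlap. Between these 2 diets, 6.14% of 12041 genes were higher and 4.59% lower in Soy-10%, and *Inhbe* and *Fst* were the 2 members called, 1 in each direction. Of 8 stellate cell markers, 5 were also lower in Soy-10% there, with a median of -0.36 and sums of 356 to 412 CPM against 389 to 519 in Cas-5%. Of 2 adipocyte markers tested there, 2 were higher in Soy-10%, with a median of 2.39. In addition, 1 of 2 cholangiocyte markers was lower and 1 of 5 red blood cell markers higher. The part of these markers in the 2 member calls was not tested. When all 30 livers entered 1 fit, both calls were lost (edgeR adjusted p = 0.226 and 0.272).

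The soy effect on *Fst* changed sign with the control libraries. It was 0.37 ± 0.60 (SE, edgeR adjusted p = 0.705) with all 6 Soy-20% + SAA livers, -0.98 without libraries 3 to 6 (edgeR adjusted p = 0.0293) and -0.81 with the GC slope as a covariate (edgeR adjusted p = 0.173). The casein effect was -0.59 ± 0.40 (SE, edgeR adjusted p = 0.312), but -1.28 without Cas-20% livers 4 to 6 (edgeR adjusted p = 0.0023) and 0.72 without livers 1 to 3 (edgeR adjusted p = 0.105). Between control diets, Soy-20% + SAA minus Cas-20% in *Fst* was -1.94 ± 0.69 (SE, edgeR adjusted p = 0.0997). Soy-20% minus Soy-20% + SAA was 0.99 ± 0.61 (SE, edgeR adjusted p = 0.332).

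*Gdf15* did not pass in any comparison with all livers. With Soy-20% + SAA liver 1 left out it was higher in Soy-20% + SAA than in Cas-20% (0.81, edgeR adjusted p = 0.0246), where it had been 0.65 (edgeR adjusted p = 0.144). Its medians were 122 counts in Cas-20%, 112 in Cas-5%, 115 in Soy-20%, 178 in Soy-20% + SAA and 134 in Soy-10%. The spread was widest in Soy-20%, from 69.3 to 437, the latter in liver 1. In Soy-20% + SAA, livers 1 to 6 had 77.4, 131, 323, 137, 219 and 247, so that livers 3 to 6 lay above livers 1 and 2. The soy effect was -0.43 ± 0.29 (SE, edgeR adjusted p = 0.310) and 0.44 without libraries 3 to 6 (edgeR adjusted p = 0.471). With the GC slope as a covariate, *Gdf15* in Soy-20% minus Soy-20% + SAA, -0.20 in the main fit, became positive, as given under the processing settings. The cause of these changes was not tested.

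**Figure D4:**
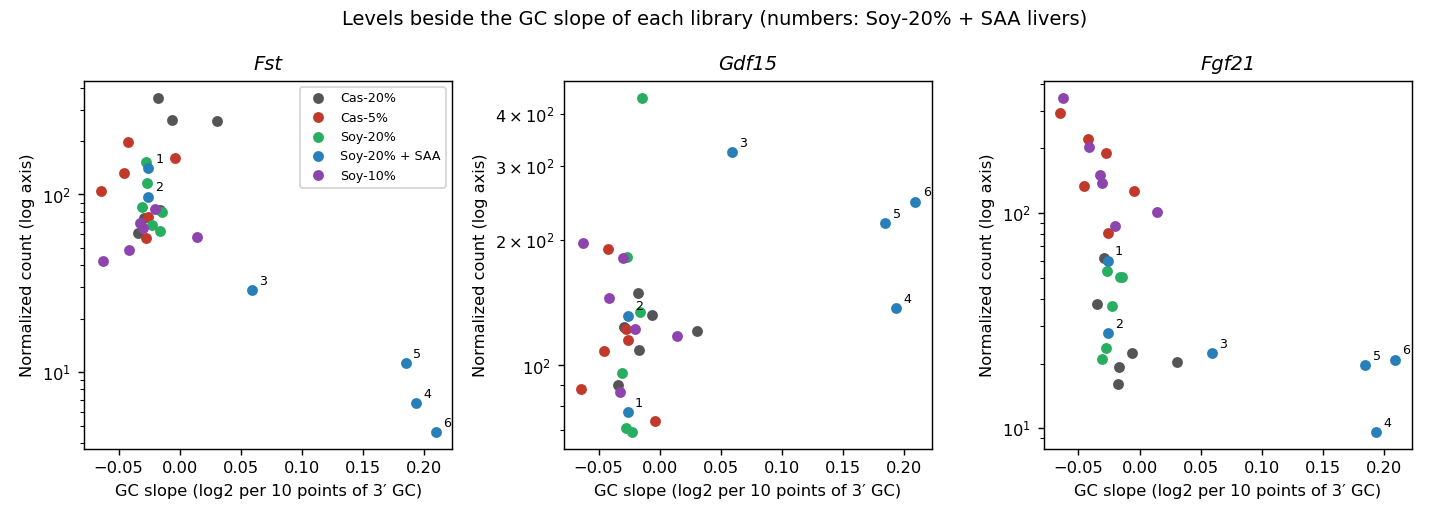
Normalized counts (log axes) of *Fst*, *Gdf15* and *Fgf21* against the GC slope of each library (log2 units per 10 percentage points of 3′ end GC), coloured by diet, with Soy-20% + SAA livers numbered. Libraries 3 to 6 lie at the right from 0.0590 to 0.210, with *Fst* from 4.63 to 29.0 and *Gdf15* from 137 to 323.

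*Fetub* and *Selenop*, products of hepatocytes at high level, rose modestly after casein restriction. Of 8 hepatocyte markers, 2 rose and 2 fell there (median log2 change of -0.11), beside 11.6% and 13.3% of all genes. Their median sums were 81196 CPM in Cas-5% and 70745 in Cas-20%, and their part in these changes was not tested. *Fetub* ran from 1784 to 2283 counts in Cas-20% (median of 1971) and 2260 to 2977 in Cas-5% (median of 2455), with 5 of 6 Cas-5% livers above all Cas-20% livers. The log2 change was 0.35 ± 0.08 (SE, edgeR adjusted p = 0.00487). *Selenop* rose by 0.37 ± 0.09 (SE, edgeR adjusted p = 0.00893), from 41696 ± 5884 to 53192 ± 3907 (SD, n = 6 each), without overlap. Its Cas-20% livers 1 to 3, from 34925 to 37960, lay below livers 4 to 6, from 43263 to 48606. Without livers 1 to 3 the change in *Selenop* was 0.19 and did not pass (edgeR adjusted p = 0.154), and with the GC slope it was 0.26 (edgeR adjusted p = 0.0545). For *Fetub* the call was lost without livers 4 to 6 (0.28, edgeR adjusted p = 0.0686). In the soy diets neither passed, with changes of 0.15 ± 0.10 and 0.04 ± 0.07 against Soy-20% + SAA (SE, edgeR adjusted p = 0.288 and 0.710).

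No neighbouring pair of diets in the order of a member's means passed after adjustment over the 36 exact two-sided permutation tests, whose smallest adjusted p was 0.0779. A single pair could not pass, since the smallest exact permutation p of 6 against 6 livers, 0.00216, gave this adjusted p. Among single pairs, *Angptl4* in Soy-10% over Soy-20% + SAA had an exact permutation p of 0.0216, *Angptl4* in Cas-5% over Soy-10% of 0.0281, *Inhbe* in Soy-10% over Cas-5% of 0.0346 and *Fst* in Soy-20% over Soy-10% of 0.0433, each with an adjusted p of 0.312. The ratio of the highest to the lowest diet mean was 6.52 for *Fgf21*, 3.77 for *Fst*, 2.41 for *Angptl4* and between 1.25 and 1.67 for the other 6.

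Of 14 tested genes for the receptors, regulators and clearance of FGF21, 0 rose and 3 fell after casein restriction, with a median log2 change of -0.11, where 11.6% of all genes rose and 13.3% fell. The co-receptor *Klb* was 178 ± 28.0 counts in Cas-20% and 162 ± 26.2 in Cas-5% (SD, n = 6 each, edgeR adjusted p = 0.540). The receptor *Fgfr1* fell by 0.68 ± 0.21 on the log2 scale, the coactivator *Ppargc1a* by 0.37 ± 0.10 and the transcription factor *Klf15* by 0.38 ± 0.07 (SE, edgeR adjusted p = 0.0226, 0.0136 and 0.000476). Without Cas-20% livers 1 to 3, *Fgfr1* (-0.53) and *Ppargc1a* (-0.36) did not pass (edgeR adjusted p = 0.133 and 0.0573), and *Mlxipl* (0.33) and *Ppara* (-0.52) did (edgeR adjusted p = 0.0333 and 0.0250). After soy restriction against Soy-20% + SAA, 2 rose and 2 fell, beside 8.51% and 8.47% of all genes, among them *Fgfr2* (0.55), *Ppara* (-0.52), the gene of PPARα, and *Mlxipl* (-0.39), the gene of the carbohydrate response factor ChREBP. Without Soy-20% + SAA libraries 3 to 6, 0 of 14 passed in either direction, where 138 genes rose and 179 fell in all.

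Targets of ATF4 rose more often than they fell. Of 18 tested, 13 rose and 3 fell after casein restriction, with a median of 0.95 beside 0.02 for all genes, and 6 of 16 rose and 2 fell after soy restriction, with a median of 0.39. Of all genes, 11.6% rose and 13.3% fell in the first comparison and 8.51% and 8.47% in the second. *Asns*, asparagine synthetase, went from 21.7 ± 13.7 counts in Cas-20% to 295 ± 45.9 in Cas-5%, and from 23.0 ± 20.6 in Soy-20% + SAA to 155 ± 51.8 in Soy-10% (SD, n = 6 each). The serine synthesis gene *Psat1* rose by 5.02 ± 0.17 after casein restriction and by 3.60 ± 0.40 after soy restriction (SE, edgeR adjusted p = 1.3e-11 and 0.000202). The 3 that fell after casein restriction were *Shmt2* (serine hydroxymethyltransferase), *Cth* (cystathionine gamma-lyase) and *Gpt2* (alanine aminotransferase). Without Soy-20% + SAA libraries 3 to 6, where 138 of 12483 genes rose and 179 fell in all, 3 of 17 rose after soy restriction and 0 fell. The mRNA of *Atf4* itself, which is controlled mostly at translation, did not pass in either comparison, with log2 changes of 0.20 ± 0.13 and 0.17 ± 0.08 (SE, edgeR adjusted p = 0.286 and 0.152). *Nupr1*, a stress coactivator, rose by 3.09 and 1.98 (edgeR adjusted p = 1.28e-08 and 0.000367). Of the 15 stress sensors and factors, 2 rose after casein restriction, a share near the 11.6% of all genes, the other being *Atf5* (0.61, edgeR adjusted p = 0.00213). After soy restriction 3 rose and 1 fell, beside 8.51% and 8.47% of all genes, and without libraries 3 to 6 only *Nupr1* of 14 passed, which rose.

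In the list of GDF15 and activin signalling, 4 of 22 genes rose and 2 fell after casein restriction, beside 11.6% and 13.3% of all genes, and 1 rose and 2 fell after soy restriction, beside 8.51% and 8.47%. *Inhba*, the activin A subunit, rose by 1.53 ± 0.19 after casein restriction (SE, edgeR adjusted p = 1.46e-05). Its mean went from 50.0 ± 18.9 to 143 ± 12.8 counts, while that of *Inhbe* was 324 and 218. After soy restriction *Inhba* rose by 1.02 ± 0.25 (SE, edgeR adjusted p = 0.0158), but by 0.40 without Soy-20% + SAA libraries 3 to 6 (edgeR adjusted p = 0.387), and it was 107 ± 37.0 in Soy-20% (SD, n = 6). *Inhbc*, the activin C subunit, rose after casein restriction by 0.34 (edgeR adjusted p = 0.0348), with the receptor genes *Bmpr2* (0.31, edgeR adjusted p = 0.00425) and *Tgfbr3* (0.46, edgeR adjusted p = 0.00512). The activin receptor *Acvr1b* fell by 0.44, and *Furin*, which cleaves the precursors, by 0.22 (edgeR adjusted p = 0.0182 and 0.0382). Calls were lost without Cas-20% livers 1 to 3 for *Furin* (-0.15, edgeR adjusted p = 0.256) and *Bmpr2* (0.25, edgeR adjusted p = 0.0575), and without livers 4 to 6 for *Inhbc* (0.17, edgeR adjusted p = 0.299) and *Acvr1b* (-0.33, edgeR adjusted p = 0.163). After soy restriction *Furin* (-0.41) and *Fstl1* (-0.42), a follistatin-like protein, fell (edgeR adjusted p = 0.0262 and 0.0359). Without Soy-20% + SAA libraries 3 to 6, *Furin* was -0.14 and did not pass (edgeR adjusted p = 0.644), while *Fstl1* was -0.69 and did (edgeR adjusted p = 0.0330).

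In the list of angiopoietin-like proteins and lipases, 3 of 13 genes rose and 2 fell after casein restriction, beside 11.6% and 13.3% of all genes, and 0 passed after soy restriction, or 2 (*Angptl4* and *Pcsk6*, both higher) without Soy-20% + SAA libraries 3 to 6. *Pcsk6*, a convertase, rose by 0.43 (edgeR adjusted p = 0.000456), and *Lmf1*, a maturation factor of lipases, fell by 0.30 (edgeR adjusted p = 0.00776). *Lmf2*, a relative of *Lmf1*, rose by 0.37 (edgeR adjusted p = 0.0140), and *Gpihbp1*, which holds lipoprotein lipase on capillary walls, fell by 0.22 (edgeR adjusted p = 0.0489). The calls of both were lost without Cas-20% livers 1 to 3 (0.27 and -0.18, edgeR adjusted p = 0.132 and 0.226). Lipoprotein lipase itself, *Lpl*, was 308 ± 120 and 295 ± 31.8 counts in Cas-20% and Cas-5% (SD, n = 6 each). Of 15 lipogenic genes that insulin and carbohydrate induce, 0 rose and 9 fell after casein restriction and 11 fell after soy restriction, with medians of -1.85 and -1.19. Without Cas-20% livers 1 to 3, where 1142 of 12450 genes rose and 1464 fell in all, 8 fell and 1 rose, with a median of -0.69. Without Soy-20% + SAA libraries 3 to 6, where 138 of 12483 genes rose and 179 fell in all, 3 fell. Against Soy-20%, 1 of the 15 fell in Soy-10%, where 0.546% of all genes fell, with a median of -0.91 over the 15. Of 18 PPARα targets, 8 rose and 1 fell after casein restriction. Without Cas-20% livers 1 to 3, where 1142 of 12450 genes rose and 1464 fell in all, 4 rose and 3 fell. Without livers 4 to 6, where 1156 of 12533 genes rose and 1446 fell in all, 11 rose and 0 fell. After soy restriction, where 8.51% of all genes rose and 8.47% fell, 5 rose and 2 fell, or 3 and 0 without Soy-20% + SAA libraries 3 to 6, and 0 passed against Soy-20%, where 0.319% of all genes rose. Among them *Acot1*, an acyl-CoA thioesterase, rose by 1.79 and 1.42 after casein and soy restriction (edgeR adjusted p = 0.000719 and 0.000666).

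**Figure D5:**
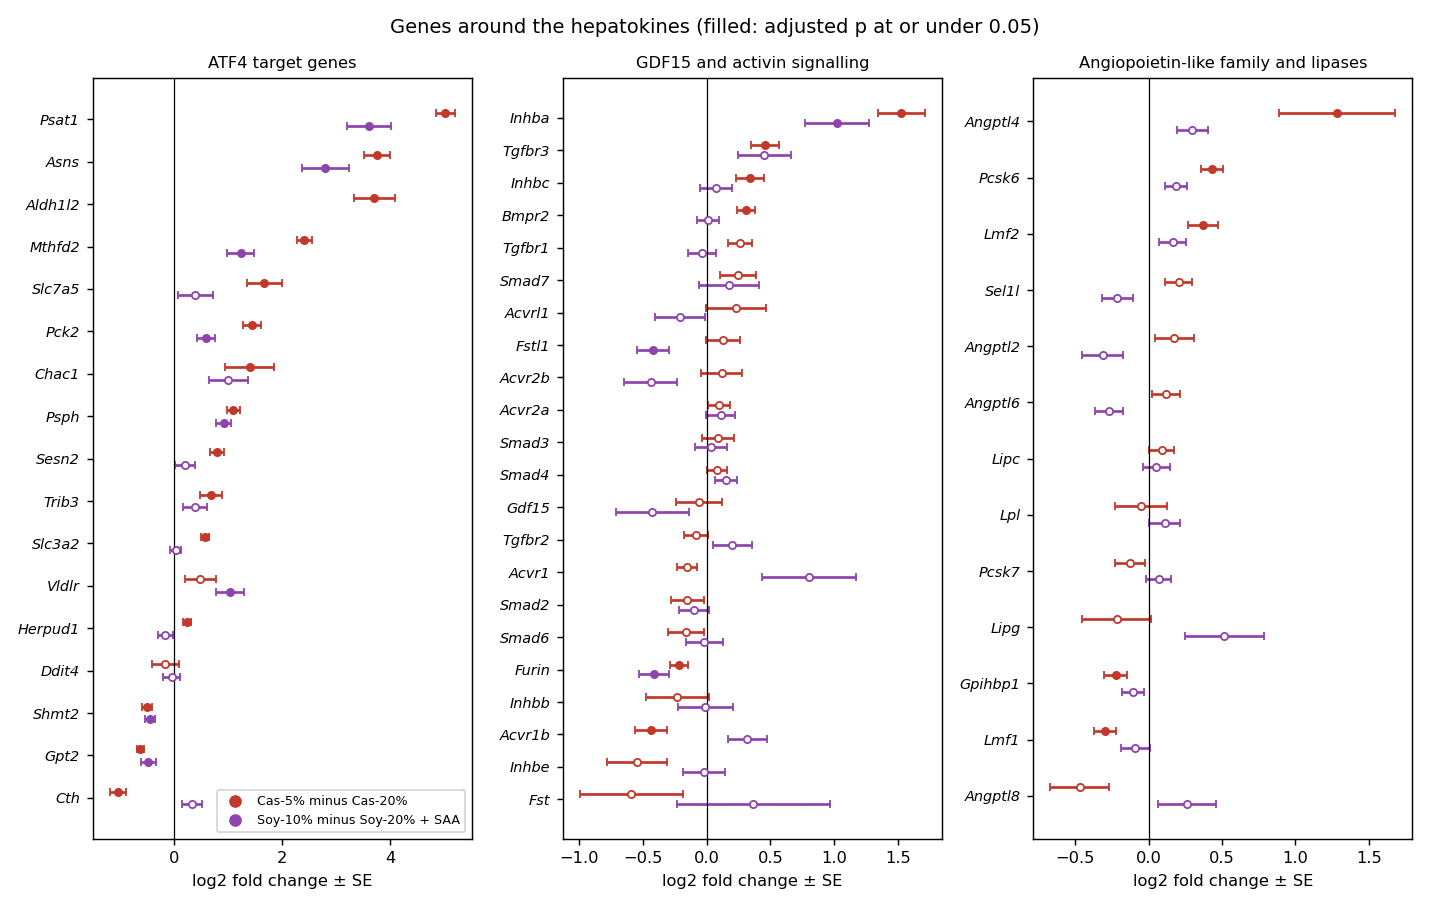
Log2 fold changes with standard errors for genes of 3 lists after casein restriction (red) and soy restriction against Soy-20% + SAA (purple), filled where the edgeR adjusted p was 0.05 or less. *Psat1* and *Asns* lead the ATF4 targets in both, *Inhba* leads the activin list, and *Angptl4* leads its list in the casein comparison only; *Phgdh*, listed at 0 in every Cas-20% liver, is not drawn.

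Of 25 tested genes of selenoproteins and selenium handling, 2 rose and 5 fell after casein restriction, with a median of -0.07, beside 11.6% and 13.3% of all genes. *Sephs2*, which makes the selenium donor for selenoprotein synthesis, fell by 0.56 ± 0.07, *Selenoo* fell by 0.50 ± 0.07 and *Sepsecs* by 0.33 ± 0.07 (SE, edgeR adjusted p = 9.46e-06, 0.000111 and 0.00326). The 2 that rose were *Selenop* and *Sephs1*, and 0 rose without Cas-20% livers 1 to 3. After soy restriction 3 rose and 2 fell, beside 8.51% and 8.47% of all genes, and 0 of 26 passed without Soy-20% + SAA libraries 3 to 6. In the cystatin superfamily 1 of 7 tested genes rose after casein restriction, *Fetub*. Without Cas-20% livers 1 to 3, where 1142 of 12450 genes rose and 1464 fell in all, 2 rose and 1 fell. These counts were also 2 and 1 with the GC slope as a covariate, and 0 passed without livers 4 to 6. After soy restriction 3 fell, where 8.47% of all genes fell. The 3 were the kininogens *Kng1* (-0.30) and *Kng2* (-0.26) and *Ahsg* (-0.37), the gene of fetuin-A (edgeR adjusted p = 0.0106, 0.00756 and 0.0277), none of which passed without Soy-20% + SAA libraries 3 to 6.

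Likeness to each member was measured by Pearson's r of log2 CPM over the 30 livers, among 12032 other genes with a mean of at least 10 counts; the livers share diets, libraries and normalization, so these are descriptions. The genes most like *Fgf21* were *Peg3* (r = 0.87, and 0.54 within diets), *Ggh* (0.87 and 0.54), *Serpina7* (0.86 and 0.69), *Psat1* (0.86 and 0.20) and *Gm11837* (0.85 and 0.41). *Serpina7*, thyroxine-binding globulin, had means of 488 ± 123 in Cas-20%, 938 ± 166 in Cas-5%, 586 ± 148 in Soy-20%, 496 ± 156 in Soy-20% + SAA and 816 ± 255 in Soy-10% (SD, n = 6 each). *Psat1*, the least alike of these within diets, had means of 151 in Cas-5% and 56.6 in Soy-10%. *Angptl4* was most like *Lgals4* (0.90, and 0.83 within diets) and *Acot12* (0.88 and 0.79), and *Selenop* was most like *Angptl4* (0.85 and 0.71) and *Lgals4* (0.85 and 0.69). *Fst* was most like *Slc19a2* (0.91 and 0.90) and *Lrp5* (0.90 and 0.82), whose 3′ ends have 33.5% and 34.0% GC and whose means were lowest in Soy-20% + SAA. *Inhbe* was most like *Pnldc1* (0.79) and *Pdcd6* (0.78), *Gdf15* like *Mbnl2* (0.72) and *Depp1* (0.71), *Angptl8* like *Lyn* (0.73) and *Nr0b2* (0.69), *Angptl6* like *Cct8* (0.75) and *Plrg1* (0.73), and *Fetub* like *Serpina11* (0.78) and *Enho* (0.77).

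Some markers of other cells moved with diet. After casein restriction, where 11.6% of all genes rose and 13.3% fell, 4 of 5 red blood cell markers fell (led by *Hbb-bs*), with median sums of 2345 CPM in Cas-20% and 1544 in Cas-5%. Stellate cell markers (8 of 8 in the table, led by *Dcn*) summed to 389 to 519 in Cas-5% and 352 to 419 in Cas-20%, and 2 of 8 rose. Of 7 markers of sinusoidal endothelium, 2 rose, *Kdr* (not without Cas-20% livers 1 to 3, edgeR adjusted p = 0.0524) and *Stab1*, and of 8 Kupffer cell markers 0 passed by edgeR in that comparison. Cholangiocyte markers (5 of 6, led by *Sox9*) had a median sum of 29.7 in Soy-10% and 39.7 in Soy-20% + SAA. Adipocyte markers (3 of 6, led by *Cfd*) had medians from 7.97 in Cas-5% to 38.2 in Soy-20%, and *Adipoq*, *Lep* and *Plin1* are not among the genes of the table. The sum of the other 3 does not by itself show that adipocytes were present. Skeletal muscle markers (5 of 5, led by *Mylpf*) summed to at most 8.25 in any liver, with medians from 0.977 in Cas-20% to 5.67 in Cas-5%. Their part in the differences of the hepatokines was not tested.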

How the data were processed

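Each of 30 mice gave 1 liver library. The labels name separate mice but no shared cage or batch. The authors made the libraries with the QuantSeq 3′ kit and deposited raw counts per gene, not normalized, and the same values as a normalized signal, counts divided by a DESeq2 size factor (0.759 to 1.297). Per the labels, R 4.0.3, DESeq2 1.30 and GRCm38 were used; mapping and counting were run in the Lexogen pipeline for forward-strand QuantSeq reads, whose aligner is not given in the sources used here. The deposited genes each total at least 90 counts. Levels are normalized counts with no scaling for length, so genes were not compared with each other.

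Counts were fitted in R 4.3.3 with edgeR 4.0.16 (filterByExpr, TMM, quasi-likelihood F test, Benjamini-Hochberg adjustment over all genes tested, threshold 0.05), on the livers of the diets compared. Log2 CPM had a prior count of 2. DESeq2 1.42.0, other normalizations and filters, a fit of all 30 livers, a replicate block, the GC slope and left-out livers were alternatives. Neighbouring diets were compared with exact permutation tests in scipy 1.17.1, and the tables made with Python 3.11.15, numpy 2.4.6, pandas 2.3.3 and matplotlib 3.10.9. GC slopes used 10661 genes and the last 200 bases of GENCODE M21 transcripts. The fits were tested on simulated data. Members, lists and the fixed rule for named genes (all 9 members, up to 3 genes per list with the smallest adjusted p in each restriction comparison, and the 5 or 2 most alike) were chosen with earlier results of these data known. Other listed genes were named after their values were seen. A gene of the lists is not reported here.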

Additional observations from a re-analysis of the deposited data

Results flagged for a closer look

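Of the 45 groups formed by 9 genes and 5 diets, 3 held a liver far from the other 5 of its diet; chance gives about 1 in 20. *Fgf21* in Soy-20% + SAA liver 1 was 60.2 normalized counts, above the other livers at 9.58 to 27.6. Without it, the log2 difference of Soy-20% over Soy-20% + SAA in *Fgf21* passed (0.996, edgeR adjusted p = 0.0395), where it had been 0.58 with all livers (edgeR adjusted p = 0.340). *Gdf15* in Soy-20% liver 1 was 437, above the others at 69.3 to 182, and without it Soy-10% minus Soy-20% in *Gdf15* went from -0.22 to 0.35. *Angptl4* in Soy-10% liver 2 was 997, above the others at 788 to 858. The causes were not tested.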

How the results depend on the processing

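Of the values of single members under settings that leave out no single liver, 527 kept direction and side of the threshold, 26 gained and 19 lost a call, and 40 changed sign; with 1 liver left out the numbers were 794, 16, 11 and 43. *Fgf21* passed in the restriction comparisons with every single liver left out (2.34 to 2.91 for casein, 2.36 to 3.09 for Soy-10% minus Soy-20% + SAA, 1.79 to 2.23 for Soy-10% minus Soy-20%). The causes of the changes below were not tested. Leaving out Cas-20% livers 1 to 3 or 4 to 6 was chosen after seeing the data. The 5-diet test was not run with single livers left out. Low counts limit *Fst* and *Fgf21* most.

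The same replicate numbers did not pair the livers: correlations of same-numbered livers' deviations had medians from -0.05 to 0.06 over the comparisons, with at most 2 of 6 pairs over 0.1. With the replicate block edgeR called 2656 genes for casein, 2014 for Soy-10% minus Soy-20% + SAA, 80 for Soy-10% minus Soy-20%, 1370 for Soy-10% minus Cas-5%, 1272 for the difference of effects, 5356 for the 5 diets and 141 for Soy-20% + SAA minus Cas-20% (291 without the block). Members called under the block were 1 for the difference of effects (*Selenop*, 0.32) and 1 for Soy-20% + SAA minus Cas-20% (*Fst*, -2.32), and *Gdf15* in Soy-10% minus Soy-20% was 0.0092 and *Inhbe* in Soy-20% minus Soy-20% + SAA 0.0034.

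For Soy-10% minus Soy-20% + SAA, 2035 genes became 3077 in a fit of all 30 livers, 365 with the GC slope and 317 without Soy-20% + SAA libraries 3 to 6, and members called became 2 in each of these and by DESeq2. *Inhbe* was 0.068 with the GC slope and 0.11 without those libraries, *Fst* -0.81 and -0.98, and *Gdf15* 0.44 without them. For Soy-10% minus Soy-20%, 103 genes became 217 by DESeq2 and 62 in the fit of all livers. For Soy-20% minus Soy-20% + SAA, 1 gene became 873 by DESeq2, 1793 in the fit of all livers, 2 with DESeq2 size factors, 2 with no filter, and 0 with the GC slope or without libraries 3 to 6, and members called became 1 by DESeq2 and in the fit of all livers. There, with the GC slope and without libraries 3 to 6, *Fgf21* was -0.027 and -0.17, *Gdf15* 0.22 and 0.66, *Angptl4* 0.071 and 0.036, *Fst* -0.26 and -0.36, *Inhbe* 0.13 and 0.12, *Fetub* -0.059 and -0.054, and *Selenop* 0.0029 and 0.012.

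For Soy-20% + SAA minus Cas-20%, 291 genes became 1108 by DESeq2, 2331 in the fit of all livers, 5 with the GC slope, 3 without libraries 3 to 6, and 15 and 140 without Cas-20% livers 1 to 3 and 4 to 6. Members called there became 1 by DESeq2, 3 in the fit of all livers and 2 without Cas-20% livers 4 to 6. *Fgf21* was 0.48 with the GC slope, 0.59 without libraries 3 to 6 and 0.44 without Cas-20% livers 4 to 6, *Gdf15* -0.22 without libraries 3 to 6 and *Inhbe* 0.65 without Cas-20% livers 4 to 6. For Soy-10% minus Cas-5%, members called became 0 in the fit of all livers, and with the GC slope *Fgf21* was 0.048 and *Angptl8* 0.016. For casein, *Gdf15* was 0.10, *Angptl8* 0.078 and *Fst* 0.72 without Cas-20% livers 1 to 3, and *Inhbe* 0.18 and *Angptl6* -0.0071 without livers 4 to 6.

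For the difference of effects, 1089 genes became 579 with the GC slope, 296 without libraries 3 to 6 and 645 without Cas-20% livers 4 to 6, and members called became 2 and 3 without Cas-20% livers 1 to 3 and 4 to 6. *Fgf21* there was 0.73 with the GC slope, 0.63 without libraries 3 to 6 and 0.47 without Cas-20% livers 4 to 6. *Gdf15* was -0.51 and *Fst* 0.38 without libraries 3 to 6, *Fst* 0.36 without Cas-20% livers 1 to 3 and *Inhbe* 0.21 without livers 4 to 6. For the 5 diets, 5450 genes became 3543 with the GC slope and 3433 without libraries 3 to 6, and members called became 4 with the GC slope.

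With single livers left out, genes called ran from 1219 to 3119 and members from 1 to 2 for Soy-10% minus Soy-20% + SAA, genes from 50 to 146 for Soy-10% minus Soy-20%, genes from 0 to 1587 and members from 0 to 2 for Soy-20% minus Soy-20% + SAA, genes from 9 to 1817 and members from 0 to 2 for Soy-20% + SAA minus Cas-20%, members from 1 to 2 for Soy-10% minus Cas-5%, and genes from 719 to 1941 and members from 0 to 1 for the difference of effects. *Gdf15* ran from -0.23 to 0.042 for casein, -0.38 to 0.35 for Soy-10% minus Soy-20% and -0.77 to 0.013 for Soy-20% minus Soy-20% + SAA. *Inhbe* ran from -0.12 to 0.074 for Soy-10% minus Soy-20% + SAA, -0.067 to 0.092 for Soy-10% minus Soy-20%, -0.11 to 0.049 for Soy-20% minus Soy-20% + SAA and -0.22 to 0.037 for Soy-20% + SAA minus Cas-20%. *Fetub* ran from -0.0062 to 0.11 for Soy-20% minus Soy-20% + SAA. *Fgf21* ran from -0.57 to 0.22 for Soy-20% + SAA minus Cas-20%, -0.35 to 0.18 for Soy-10% minus Cas-5% and -0.54 to 0.25 for the difference of effects, and *Angptl8* from -0.15 to 0.083 for Soy-10% minus Cas-5%.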

Other observations

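Other secreted liver proteins were measured beside the 9 genes. Of 22 tested, 7 rose and 6 fell after casein restriction, with a median log2 change of 0.02, and 4 rose and 5 fell after soy restriction against Soy-20% + SAA, with a median of -0.21. Of all genes, 11.6% rose and 13.3% fell in the first comparison and 8.51% and 8.47% in the second. Without Soy-20% + SAA libraries 3 to 6, where 138 of 12483 genes rose and 179 fell in all, the soy counts were 2 and 0 (median of -0.05). Against Soy-20%, 0 passed. *Igfbp1*, a binding protein of insulin-like growth factors, had 548 ± 254 counts in Cas-20%, 2216 ± 790 in Cas-5%, 641 ± 278 in Soy-20% + SAA and 493 ± 182 in Soy-10% (SD, n = 6 each). It rose by 2.03 ± 0.28 after casein restriction (SE, edgeR adjusted p = 5.71e-05) and was -0.38 ± 0.26 after soy restriction (SE, edgeR adjusted p = 0.331); the difference of both effects, 2.40, passed (edgeR adjusted p = 0.00149). *Fgl1*, hepassocin, rose by 1.54 ± 0.11 and 1.16 ± 0.28 (SE, edgeR adjusted p = 3.7e-08 and 0.0151), the latter not without Soy-20% + SAA libraries 3 to 6 (0.88, edgeR adjusted p = 0.315). *Tsku*, tsukushi, rose by 1.24 and 1.19 (edgeR adjusted p = 0.000489 and 0.0027). *Enho*, adropin, rose by 1.79 after casein restriction (edgeR adjusted p = 4.66e-05). *Lect2* fell by 0.90 and 0.58 and *Pltp*, a phospholipid transfer protein, by 1.25 and 1.04 (edgeR adjusted p = 2.76e-05, 0.0144, 1.11e-05 and 0.0225), where the soy changes of both did not pass without those libraries (edgeR adjusted p = 0.368 and 0.102).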
